A study of Homo sapiens with 6 samples.

Results

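The narrower TRIM24 sites held in common by LNCaP-abl cells, DHT-treated LNCaP cells and vehicle-treated LNCaP cells were examined. They are the TRIM24 peaks of LNCaP-abl that were under 1500 bp wide and overlapped, by 1 bp or more, a peak of the LNCaP DHT list and a peak of the LNCaP vehicle list. Of the 20621 LNCaP-abl peaks, 3674 met this rule (17.8%, exact 95% confidence interval 17.3 to 18.3), and all 3674 are accounted for below. A further 699 LNCaP-abl peaks were in both LNCaP lists and 1500 bp or wider, and these are called the broad shared peaks. The sites were selected on their presence in each list and their LNCaP-abl width, so presence, width and the peak scores that go with them are given here as descriptions without a test.

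The peaks come from chromatin immunoprecipitation and sequencing (ChIP-seq) with an antibody against TRIM24 in 2 human prostate cancer cell lines. LNCaP came from a prostate cancer metastasis in a lymph node and depends on androgen. LNCaP-abl was derived from it and is castration-resistant. LNCaP-abl cells were kept throughout in charcoal/dextran-treated serum, which is depleted of steroids, and received vehicle for 4 h. LNCaP cells were held in such serum for 72 h and then given 10 nM dihydrotestosterone (DHT), a potent natural androgen, or ethanol vehicle, each for 4 h. Hormone-depleted serum was therefore common to all 3 conditions, and added androgen was present in 1 of them. There was 1 TRIM24 library per condition, hence no replicate check of any difference between them, and none was tested. The authors' lists held 20621 peaks in LNCaP-abl, 7105 in LNCaP with DHT and 9744 in LNCaP with vehicle, and the read depth behind them is unknown. Positions are in hg19. Sites are named by position, because no annotation or sequence of that build was used here.

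TRIM24 belongs to the tripartite motif proteins, a family with a RING finger that can act as ubiquitin ligases. Its carboxy-terminal PHD finger and bromodomain together read a histone H3 tail that is unmethylated at one lysine and acetylated at another, which places TRIM24 on selected stretches of chromatin. It is known as a coregulator of nuclear receptors, among them the androgen receptor in prostate cancer cells. A ChIP-seq peak is an interval in which a peak caller found more reads than its background model allows, and its width reflects both how far the protein or its fragments extend and how deeply the library was sequenced.

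By rank within each list, the narrower shared sites lay high in the LNCaP-abl list and were spread more evenly through the LNCaP lists. The authors' peak score is a −log10 value of p or q and can be ranked only within its own list, since it grows with depth. It ran in these sites from 3.28 to 793 in LNCaP-abl, with a median of 91.0 (quartiles 53.5 and 139). Their DHT scores ran from 2.05 to 255 with a median of 7.84 (quartiles 5.60 and 12.1). Their vehicle scores ran from 2.11 to 272 with a median of 8.62 (quartiles 6.02 and 13.4). Where a site held more than 1 LNCaP peak of a list, the highest-scoring one was used. As percentiles of each list, where 100 is the highest score, the medians were 83.7 in LNCaP-abl, 60.5 under DHT and 69.8 under vehicle. In the broad shared peaks they were 90.3, 62.6 and 74.7, so this pattern is not particular to the narrower sites. The lists differ in length, with 20621 LNCaP-abl, 7105 DHT and 9744 vehicle peaks. The LNCaP-abl list held 11862 peaks under 1500 bp that were in neither LNCaP list, with a median score of 12.2. The part of list length in these percentiles was not tested. The highest score of each of the 3 lists belonged to one of the narrower shared sites.

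Of the narrower shared sites, 1301 (35.4%) stood in the highest score decile of LNCaP-abl, 593 (16.1%) in that of DHT and 780 (21.2%) in that of vehicle. Of the broad shared peaks, 51.2%, 9.44% and 18.9% stood in these deciles, and 7.15% in all 3. Only 309 narrower shared sites (8.41%, 7.53 to 9.35) were in the highest decile of all 3 lists, and 2011 (54.7%) were in the highest decile of none. At the weak end, 94 sites (2.56%, 2.07 to 3.12) lay in the lower 50% of all 3 lists. The sites thus span from the strongest peaks of each list down to peaks near its lowest score.

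**Figure D1:**
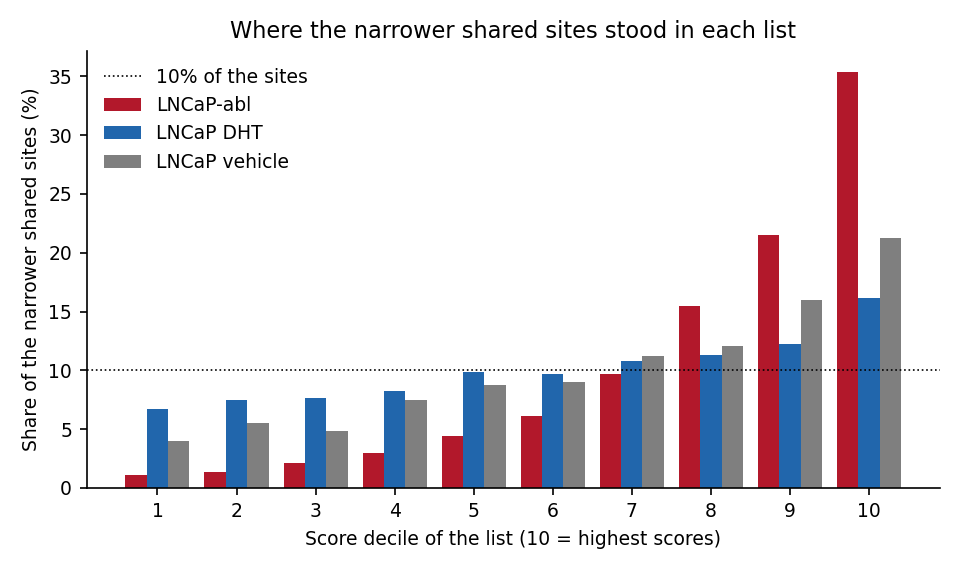
Share of the 3674 narrower shared sites (y axis, percent) that fell in each score decile of the LNCaP-abl, LNCaP DHT and LNCaP vehicle lists (x axis, 10 holding the highest scores); the dotted line marks 10%. The tenth decile held 35.4% of the sites in LNCaP-abl, 16.1% under DHT and 21.2% under vehicle, and the first held 1.06%, 6.67% and 3.97%.

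Seen from the lists, the narrower shared sites took in most of the top of each one. They made up 1301 of the 2063 LNCaP-abl peaks in the highest decile (63.1%, 60.9 to 65.2). Of the 713 DHT peaks in the highest decile, 582 (81.6%, 78.6 to 84.4) overlapped one of them, as did 770 of the 972 vehicle peaks in the highest decile (79.2%, 76.5 to 81.7). In the lowest decile the shares were 1.91% (1.36 to 2.60) of LNCaP-abl peaks, 45.9% (42.2 to 49.6) of DHT peaks and 24.5% (21.9 to 27.4) of vehicle peaks. Over the whole lists, 3954 DHT peaks (55.7%, 54.5 to 56.8) and 4110 vehicle peaks (42.2%, 41.2 to 43.2) lay under a narrower shared site.

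The strongest of these sites ranked near the top in all 3 conditions. By the lowest of its 3 percentiles, the leading site was chromosome 6 from 170491956 to 170492909, with scores of 698 in LNCaP-abl, 195 under DHT and 245 under vehicle. The site on chromosome 1 from 211431984 to 211433400 had scores of 734 in LNCaP-abl, 157 under DHT and 241 under vehicle. Chromosome 5 from 177026641 to 177027570 came next, with 776 in LNCaP-abl, 140 under DHT and 272 under vehicle, the last being the highest score of the vehicle list. All 3 were among the leading peaks of every list.

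The next 5 by the same measure were led by chromosome 11 from 118306601 to 118307948, with scores of 609 in LNCaP-abl, 117 under DHT and 167 under vehicle. Chromosome 19 from 1383263 to 1384301 had 592 in LNCaP-abl, 102 under DHT and 113 under vehicle, and chromosome 11 from 47429489 to 47430450 had 711, 87.5 and 137. Chromosome 9 from 37800434 to 37801680 had 494 in LNCaP-abl, 85.05 under DHT and 165 under vehicle. Chromosome 1 from 163291368 to 163292032 had 428 in LNCaP-abl, 116 under DHT and 110 under vehicle. These 8 sites were between 665 and 1417 bp wide in LNCaP-abl.

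A pair of sites led a single list by score. Chromosome 17 from 80023251 to 80024113 had the highest score of the LNCaP-abl list, 793, against 58.6 under DHT and 177 under vehicle. Chromosome 11 from 66188984 to 66189493 had the highest score of the DHT list, 255, and scored 169 in LNCaP-abl and 177 under vehicle. At that site the DHT peak was 1548 bp wide, the vehicle peak 644 bp and the LNCaP-abl peak 510 bp, so that LNCaP-abl held the narrowest of the 3. Both sites were chosen after their values were seen.

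How often a LNCaP-abl peak was shared varied steeply with its score. Among all 19634 LNCaP-abl peaks under 1500 bp, 18.7% were in both LNCaP lists, 25.0% were in the DHT list and 33.3% in the vehicle list. The share in both lists was 1.91% in the lowest score decile, 11.04% (9.71 to 12.5) in the sixth, 45.0% (42.7 to 47.4) in the ninth and 78.5% (76.5 to 80.5) in the tenth. The 1239 peaks under 1500 bp found in the DHT list and not the vehicle list had a median LNCaP-abl score of 41.6, and the 2859 found in the vehicle list and not the DHT list one of 49.96. The 11862 found in neither had one of 12.2. The share of 18.7% also depends on how overlap is counted. It was 4.72%, or 926 sites, when each LNCaP peak and the LNCaP-abl peak had to cover at least 50% of each other. It was 41.0%, or 2537 sites, when each list was shortened to its 7105 highest-scoring peaks. That setting holds fewer sites than the 3674, and its share is taken over far fewer LNCaP-abl peaks.

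Within a score decile, width went with sharing as well. A wider LNCaP-abl peak more readily meets a rule of 1 bp of overlap, and this was not set apart here. Score also varies within a decile, from 116 to 793 in the tenth among peaks under 1500 bp. In the ninth LNCaP-abl score decile, 40.2% (29.6 to 51.7) of peaks under 500 bp were in both LNCaP lists. The share was 36.3% (32.1 to 40.6) from 750 to under 1000 bp, 57.5% (51.3 to 63.5) in the last 250 bp before the limit and 70.7% (65.2 to 75.7) at 1500 bp or more. In the tenth decile these shares were 65.5%, 76.0%, 84.0% and 88.2%. In the ninth decile the classes below 1000 bp lay close together and those above it were higher, while in the tenth the share was higher in each wider class. Across the limit of 1500 bp the share was higher on the broad side by more than the intervals in the ninth decile, while in the tenth the intervals overlapped.

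**Figure D2:**
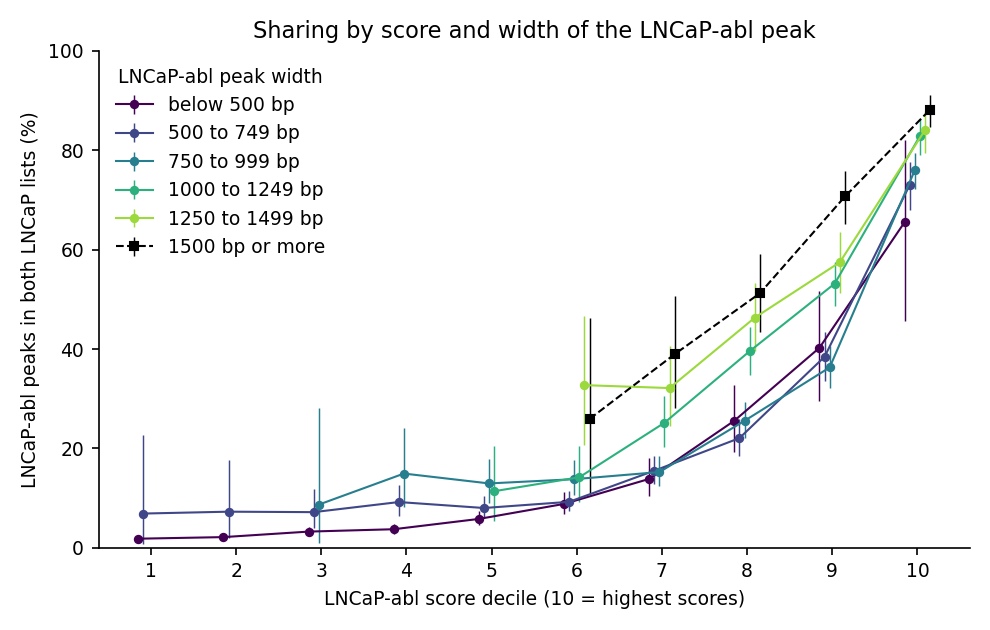
Share of LNCaP-abl peaks found in both LNCaP lists (y axis, percent) by LNCaP-abl score decile (x axis, 10 holding the highest scores), drawn for 6 width classes; bars are exact 95% intervals, which cover counting error only, and classes with fewer than 20 peaks in a decile are not drawn. In the ninth decile the share was 36.3% from 750 to under 1000 bp, 57.5% in the last 250 bp before the limit of 1500 bp and 70.7% in the peaks of 1500 bp or more.

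The 3 shared sites nearest the width limit on each side are given as examples, and no likeness of the 2 classes is read from them. Chromosome 6 from 170101610 to 170103108 was 1 bp under the limit in LNCaP-abl and had scores of 56.5 there, 5.94 under DHT and 7.38 under vehicle. Chromosome 5 from 102594122 to 102595619, with 1498 bp, had 74.6, 9.67 and 8.62, and chromosome 11 from 65189533 to 65191029, with 1497 bp, had 82.7, 3.12 and 5.71. All 3 stood above the median LNCaP-abl score of the list, 26.1. Just outside, chromosome 21 from 33783815 to 33785314 was 1500 bp wide and had scores of 57.0, 5.26 and 4.69. At 1501 bp, chromosome 10 from 79685583 to 79687083 had 76.4, 4.09 and 7.99, and chromosome 10 from 80829727 to 80831227 had 43.2, 7.37 and 4.55. These 3 were above that median too. So were most sites of both classes, as 11.9% of the narrower shared sites and 0.286% of the broad shared peaks were in the lower 50% of the LNCaP-abl list.

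Among the narrower shared sites, LNCaP-abl width ran from 200 bp to the limit with a median of 907 bp (quartiles 653 and 1148). The LNCaP peaks beneath them were narrower, with medians of 338 bp under DHT (quartiles 249 and 462) and 380 bp under vehicle (quartiles 271 and 526). There were 465 sites under 500 bp and, in 4 steps of 250 bp from there to 1500 bp, 785, 936, 904 and 584. These 5 classes made up 4.73%, 19.95%, 31.6%, 47.3% and 58.0% of all LNCaP-abl peaks of the same widths.

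The wider of these sites scored higher in LNCaP-abl and, under DHT, lower. In the class under 500 bp the median percentiles were 45.7 in LNCaP-abl, 72.8 under DHT and 73.3 under vehicle. From 750 to under 1000 bp they were 87.0 in LNCaP-abl, 59.7 under DHT and 69.8 under vehicle. In the widest class they were 88.3 in LNCaP-abl, 56.5 under DHT and 69.8 under vehicle. In the narrowest class LNCaP-abl thus had the lowest of the 3 percentiles, while in the classes from 500 bp up it had the highest. The narrowest class holds the 465 of 9824 LNCaP-abl peaks under 500 bp that passed the rule. The part of the rule and of the unequal list lengths in this order was not tested. Across the 3674 sites, Spearman's rho between LNCaP-abl width and score was 0.37 for the LNCaP-abl score, -0.17 for the DHT score and -0.06 for the vehicle score. Width and score of LNCaP-abl come from 1 library, and these values are descriptions over sites, not replicates.

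**Figure D3:**
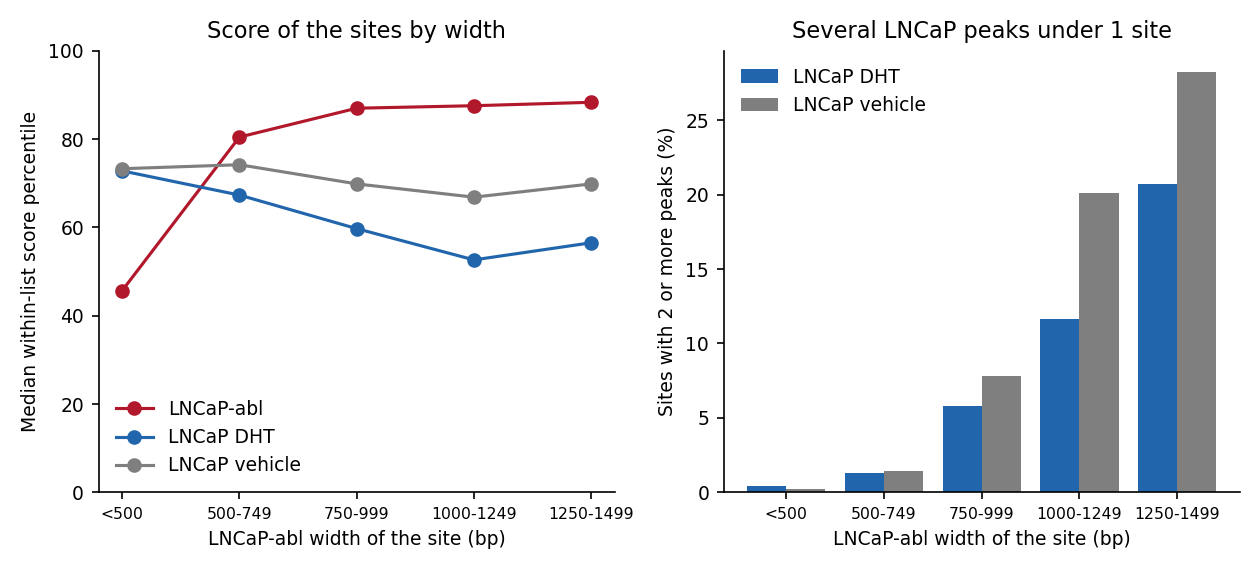
Left, median within-list score percentile of the narrower shared sites (y axis) by their LNCaP-abl width (x axis, bp) in LNCaP-abl, LNCaP DHT and LNCaP vehicle; right, share of sites with 2 or more LNCaP peaks (y axis, percent) by the same width classes. The LNCaP-abl percentile was 45.7 under 500 bp and 88.3 in the widest class, and sites with 2 or more vehicle peaks made up 0.215% and 28.3% of these classes.

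The scores of the 2 LNCaP lists followed each other more closely than either followed LNCaP-abl. Spearman's rho over the 3674 sites was 0.52 between DHT and vehicle scores, 0.25 between LNCaP-abl and DHT scores and 0.38 between LNCaP-abl and vehicle scores. In the 699 broad shared peaks these values were 0.57, 0.48 and 0.53. The sites are points of the same 3 libraries, and the lists share a cell line only for DHT and vehicle.

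Within the sites, the distance of the LNCaP peaks from the middle of the LNCaP-abl peak is given as a description. The rule places each LNCaP peak on the LNCaP-abl peak, and where a site held several, the nearest midpoint was used. Both choices keep these distances short. Distances for peaks placed at random within a site are not given, so centring was not tested. The midpoint of the nearest LNCaP peak lay a median of 99.5 bp (quartiles 43 and 189.5) from the LNCaP-abl midpoint under DHT and 91.5 bp (quartiles 41.5 and 177.5) under vehicle. These distances were 12.0% and 11.4% of the LNCaP-abl width. In the broad shared peaks they were 243 bp and 211 bp, or 13.1% and 11.2% of the width, so the relative distances were close in both classes. With mutual coverage of at least 50%, the distances in the narrower sites were 45.2 bp under DHT and 46.0 bp under vehicle. That rule leaves out LNCaP peaks much smaller than the LNCaP-abl peak.

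A DHT peak lay wholly inside the LNCaP-abl peak at 3098 narrower shared sites (84.3%, 83.1 to 85.5), against 83.4% of all LNCaP-abl peaks with any DHT peak. A vehicle peak lay wholly inside at 3069 sites (83.5%, 82.3 to 84.7), against 83.5% of all LNCaP-abl peaks with any vehicle peak. Both shares were near those of the whole list, which these sites in large part make up, and are not particular to them. In the broad shared peaks they were 98.3% and 99.3%. Together the DHT peaks covered a median of 43.4% of a narrower shared site and the vehicle peaks 50.8%, against 28.4% and 40.1% of a broad shared peak.

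The rule asked for a DHT peak and a vehicle peak but not that the 2 touch each other. It does place both on the same LNCaP-abl peak under 1500 bp, which leaves them little room to lie apart. How often they touch is therefore not independent of the rule. No share for peaks placed at random within a site is given here, so the values are descriptions only. DHT and vehicle peaks overlapped at 3469 of the narrower shared sites (94.4%, 93.6 to 95.1). This compares with 94.0% of all LNCaP-abl peaks in both LNCaP lists and 91.7% (89.4 to 93.6) of the broad shared peaks. The share is near that of all LNCaP-abl peaks in both LNCaP lists, which these sites largely make up. The share was 98.7% under 500 bp and 88.9% in the widest class of 250 bp. Sites under 500 bp leave the least room, as their LNCaP peaks had median widths of 320 bp under DHT and 315 bp under vehicle. At the other 205 sites, DHT and vehicle peaks occupied separate stretches of the same LNCaP-abl peak. Those sites were wider, with a median of 1139 bp, and had median scores of 74.6 in LNCaP-abl, 5.30 under DHT and 5.65 under vehicle. The 3469 sites with touching peaks had a median width of 894 bp and median scores of 92.7, 8.11 and 8.96.

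The DHT and vehicle peaks of a site lay close to each other. At the 3027 sites with 1 peak in each LNCaP list, the DHT and vehicle midpoints were a median of 69 bp apart (quartiles 28 and 142). Leaving out midpoints that coincided with that of LNCaP-abl, 2076 of 3018 sites (68.8%, 67.1 to 70.4) had both on the same side of it. In the broad shared peaks this share was 75.7% (69.3 to 81.4). The share follows in large part from the overlap of the DHT and vehicle peaks given above, and nothing further is read from it. DHT and vehicle lists come from separate libraries of 1 cell line, and the positions carry no strand.

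**Figure D4:**
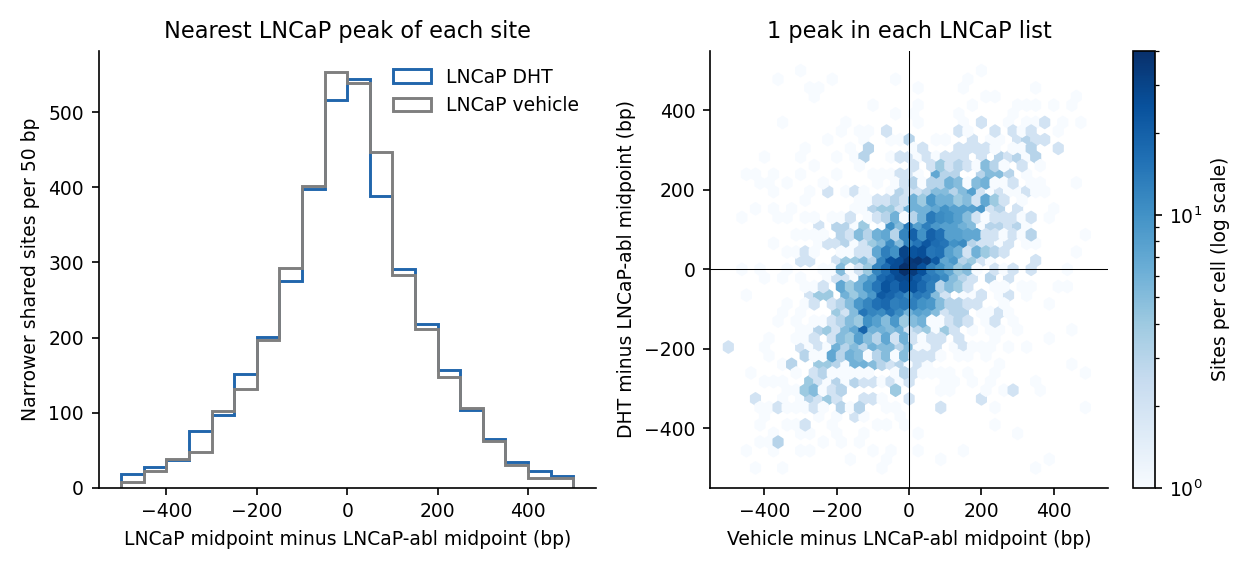
Left, number of narrower shared sites (y axis, per 50 bp) by the distance of the nearest LNCaP midpoint from the LNCaP-abl midpoint (x axis, bp); right, DHT against vehicle distance for the 3027 sites with 1 peak in each LNCaP list, with darker cells for more sites. Distances beyond 500 bp are not drawn. The left distributions centre on 0, with median absolute distances of 99.5 bp under DHT and 91.5 bp under vehicle, and most points on the right lie in the 2 quadrants where both peaks are on the same side.

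Most narrower shared sites held a single peak of each LNCaP list, and a minority were split in LNCaP. Of the sites, 3027 (82.4%, 81.1 to 83.6) had 1 peak in each. There were 292 sites (7.95%) with 2 or more DHT peaks, against 11.1% of all LNCaP-abl peaks in the DHT list, and 432 (11.8%) with 2 or more vehicle peaks, against 14.5% of all LNCaP-abl peaks in the vehicle list. Only 77 sites had 2 or more of both. Among the broad shared peaks, 41.6% had 2 or more DHT peaks and 56.4% 2 or more vehicle peaks. In the narrower sites the share went up with width, with 0.430% under 500 bp and 20.7% in the widest class for DHT, and 0.215% and 28.3% for vehicle.

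Neighbouring LNCaP peaks under 1 narrower shared site were a median of 473 bp apart under DHT (297 spacings, quartiles 380 and 562, midpoint to midpoint) and 482.5 bp under vehicle (451 spacings, quartiles 402 and 595.5). In the broad shared peaks these medians were 651.5 bp and 661 bp. The width of a site bounds such spacings, so they are not read as a distance typical of TRIM24. The sites with the most LNCaP peaks held 5 each. A site on chromosome 3 from 160472773 to 160474185 had 2 DHT and 3 vehicle peaks. So had chromosome 5 from 111755069 to 111756204, as well as chromosome 11 from 68079648 to 68080991. The site on chromosome 16 from 67062636 to 67064064 had 3 DHT and 2 vehicle peaks, as did that on chromosome 19 from 3366236 to 3367705. The LNCaP-abl scores of these 5 ranged from 26.0 at the site on chromosome 5 to 155 at the site on chromosome 19.

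The ranks of these sites under DHT and under vehicle are set side by side here as a description. The DHT percentile exceeded the vehicle percentile at 1433 sites (39.0%, 37.4 to 40.6), against 37.7% of all LNCaP-abl peaks in both LNCaP lists and 37.5% of all DHT peaks with a vehicle peak. This share is near the background, and percentiles of lists of unequal length cannot show a change in binding. The share was 44.8% with all lists at 7105 peaks. Of the 593 sites in the highest DHT decile, 23 (3.88%, 2.47 to 5.76) were in the lower 50% of the vehicle list. Of the 780 in the highest vehicle decile, 62 (7.95%, 6.15 to 10.1) were in the lower 50% of the DHT list. Shares of this kind over all LNCaP-abl peaks in both LNCaP lists are not given here. These counts are therefore not read as particular to the narrower shared sites.

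Sites that ranked far higher under DHT than under vehicle were led by chromosome 5 from 121297294 to 121297800, with scores of 20.1 under DHT and 2.91 under vehicle. Chromosome X from 47479094 to 47479654 had 22.1 under DHT and 3.25 under vehicle, and chromosome 4 from 78783696 to 78784130 had 16.6 and 2.63. Their LNCaP-abl scores were 43.1, 69.2 and 49.3, in the middle and upper parts of that list. The other 2 of this group were chromosome 1 from 160370148 to 160370352, with 18.4 under DHT, 3.15 under vehicle and 6.37 in LNCaP-abl, plus a site on chromosome 8 from 67025503 to 67026408, with 16.3, 2.86 and 15.0. All 5 vehicle scores lay close to the lowest score of that list, 2.02.

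In the opposite direction, chromosome 7 from 124405557 to 124406484 had scores of 2.95 under DHT and 20.7 under vehicle. Chromosome 17 from 80230580 to 80231839 had 2.54 under DHT and 14.4 under vehicle, and chromosome 9 from 86535737 to 86536624 had 3.02 and 14.7. Chromosome 7 from 100302967 to 100304026 had 3.02 under DHT and 13.7 under vehicle, and chromosome 13 from 21099443 to 21100263 had 2.64 and 12.9. The LNCaP-abl scores of these 5 sites ranged from 62.2 to 96.0, and all were 821 bp or wider there. The sites high under DHT were between 205 and 906 bp wide.

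By rank within the lists, LNCaP-abl stood apart from both LNCaP lists at some sites, on the high side or the low side. The lists are of unequal length, so these ranks cannot show a change in binding. Among the 1301 sites in the highest LNCaP-abl decile, 83 (6.38%, 5.11 to 7.85) were in the lower 50% of both LNCaP lists. The same share over all LNCaP-abl peaks in both LNCaP lists is not given here, so it is not read as particular to these sites. The largest gap with LNCaP-abl on the high side was at chromosome 16 from 57318114 to 57319041, with scores of 162 in LNCaP-abl, 3.32 under DHT and 4.18 under vehicle. Both LNCaP scores lay in the lowest 2 deciles of their lists. Chromosome 8 from 59571399 to 59572579 had 156, 4.39 and 3.53, and chromosome 19 from 35491016 to 35491907 had 124, 4.25 and 3.25. Chromosome 4 from 25314117 to 25314697 had 112 in LNCaP-abl, 3.38 under DHT and 3.66 under vehicle, and chromosome 12 from 117318650 to 117319612 had 139, 4.19 and 3.94. At each of these 5 sites the LNCaP peaks were 481 bp wide or less, and 6 of the 10 LNCaP peaks had the minimum width of 200 bp.

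The reverse pattern was low rank in LNCaP-abl with high rank in LNCaP. Of the 447 sites in the highest decile of both LNCaP lists, 58 (13.0%, 10.0 to 16.4) were in the lower 50% of LNCaP-abl. Their median width was 357.5 bp, with median scores of 12.9 in LNCaP-abl, 32.4 under DHT and 24.2 under vehicle. At 54 of them the DHT peak was wider than the LNCaP-abl peak, and at 51 the vehicle peak was. Over all narrower shared sites, the DHT peak was wider at 6.59% and the vehicle peak at 6.10%. A short LNCaP-abl peak is more easily exceeded in width. No share to set beside the 13.0% is given over all LNCaP-abl peaks in both LNCaP lists, so it is not read as particular to these sites.

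By the largest gap between the mean LNCaP percentile and the LNCaP-abl percentile, 5 sites were named, of which 3 were among the 58. Chromosome 16 from 88627180 to 88627380 led, with scores of 4.48 in LNCaP-abl, 38.0 under DHT and 16.6 under vehicle. Chromosome 2 from 92281301 to 92281524 had 4.83 in LNCaP-abl, 25.9 under DHT and 24.6 under vehicle, and chromosome 8 from 46852457 to 46852661 had 5.81, 17.4 and 20.3. The remaining 2 were in the highest decile under DHT but not under vehicle. These were chromosome 20 from 62092722 to 62092921, with 3.35 in LNCaP-abl, 20.02 under DHT and 13.3 under vehicle, and chromosome 2 from 92316216 to 92316415, with 4.57, 25.5 and 11.3. All 5 were between 200 and 224 bp wide in LNCaP-abl.

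Of the 58 sites, 29 fell in 4 windows of 1 Mb next to centromeres, windows that were chosen on these values. The window on chromosome 10 from 42 to 43 Mb held 10 of them, chromosome 19 from 27 to 28 Mb 8, chromosome 18 from 18 to 19 Mb 7 and chromosome 2 from 92 to 93 Mb 4. The part of this location in the scores was not tested. Several of the other 29 lay beside centromeres too, among them 2 on chromosome 6 from 58 to 59 Mb, 1 on chromosome X from 58 to 59 Mb and the site on chromosome 8 given above.

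One stretch on chromosome 18 showed the pattern in its plainest form. A single DHT peak of 3493 bp from 18516983 to 18520475, with a score of 76.1, and a single vehicle peak of 3491 bp from 18516987 to 18520477, with a score of 70.0, covered 5 LNCaP-abl sites. These began at 18517002, 18517970, 18518555, 18519687 and 18520266 and were 368, 352, 928, 522 and 206 bp wide. Their LNCaP-abl scores were 17.6, 11.9, 24.4, 17.1 and 12.7. Here the 2 LNCaP lists had 1 long interval with near-identical ends, and LNCaP-abl had 5 short ones. Such sites share their LNCaP peaks and are not independent; over all sites, 11 DHT peaks and 11 vehicle peaks lay under more than 1 site.

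Many of the short sites lay under a wider LNCaP peak. Of the 465 sites under 500 bp, 188 had a wider DHT peak, 170 a wider vehicle peak and 130 both. Over all narrower shared sites, 242 (6.59%) had a wider DHT peak and 224 (6.10%) a wider vehicle peak. The LNCaP peaks of the short sites were not themselves wide, with medians of 320 bp under DHT and 315 bp under vehicle. The counts thus go with the choice of short LNCaP-abl peaks. There were 16 sites of 200 bp, and the first 3 of them in genome order varied in their LNCaP scores. Chromosome 2 from 1747969 to 1748168 had scores of 5.28 in LNCaP-abl, 16.7 under DHT and 11.4 under vehicle, and lay under a vehicle peak of 1402 bp. Chromosome 2 from 55276155 to 55276354 had 6.70, 6.82 and 5.80, and chromosome 2 from 92290368 to 92290567 had 6.06, 19.2 and 15.7.

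The lowest LNCaP-abl scores among the sites were 3.28 at chromosome 17 from 6923316 to 6923515, with 5.38 under DHT and 4.18 under vehicle, and 3.35 at the site on chromosome 20 given above. Chromosome 16 from 24267300 to 24267499 had 3.92 in LNCaP-abl, 18.4 under DHT and 7.196 under vehicle. Chromosome 1 from 6240217 to 6240674 and chromosome 9 from 140067495 to 140067739 both had 4.14 in LNCaP-abl, with 5.60 and 3.48 under DHT and 4.98 and 3.94 under vehicle. These 5 sites were between 200 and 458 bp wide.

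The number of narrower shared sites went with gene number across chromosomes, with chromosome X far below the autosomes in sites per gene name. Chromosome 1 held 460 of them (12.5% of the sites, against 9.73% of all LNCaP-abl peaks), chromosome 2 held 253 and chromosome 19 held 217. Per Mb they were densest on chromosome 19, with 3.67, then chromosome 17 with 2.51 and chromosome 16 with 2.01. Among the autosomes the lowest values were 0.617 on chromosome 13 and 0.701 on chromosome 4. The length used ran from the chromosome start to the end of its last peak. Stretches in which no peak can be called were not taken out, so the order of these low values is not read further. Spearman's rho between the number of sites and the number of protein-coding gene names in RefSeq (GRCh38.p14, names only) was 0.88 over 23 chromosomes, without chromosome Y. This is a description, since large chromosomes hold more of both. The same value for the whole LNCaP-abl list is not given here, so it is not read as particular to these sites. Per 100 gene names, sites ranged among the autosomes from 13.7 on chromosome 6 to 26.3 on chromosome 18, with 4.13 on chromosome X.

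As a share of the LNCaP-abl peaks of their chromosome, the sites reached 24.7% on chromosome 18 (19.8 to 30.1) and 22.9% on chromosome 1 (21.1 to 24.8), against 17.8% over the whole list. On chromosome 18, 8 of the 71 sites were among the 9 LNCaP-abl peaks of the window from 18 to 19 Mb. Of these, 5 lay under the same DHT peak and the same vehicle peak, so its lead over chromosome 1 is not read further. Chromosome 19 had 13.2% (11.6 to 15.0), chromosome 22 had 13.9% (11.2 to 16.999), chromosome 6 had 14.3% (12.2 to 16.6) and chromosome 17 had 15.3% (13.4 to 17.3). Chromosome 19 thus had the most sites per Mb and the lowest share among the autosomes. Its LNCaP-abl peaks had a median score of 19.1, against 26.1 over the list. Among peaks under 1500 bp in the 2 highest LNCaP-abl score deciles, the share was 61.8% (54.2 to 69.0) on chromosome 19, close to the 61.3% (59.6 to 62.9) of all chromosomes. It was 50.6% on chromosome 22 (39.3 to 61.9), 50.9% on chromosome 6 (43.1 to 58.6) and 53.2% on chromosome 17 (46.1 to 60.3), so that chromosomes 6 and 17 had intervals below the value of all chromosomes. Chromosome 1, with 67.4% (62.6 to 71.9), and chromosome 9, with 70.8% (61.5 to 79.0), had intervals above it. No adjustment was made for comparing many chromosomes.

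On chromosome X, 35 of 490 LNCaP-abl peaks (7.14%, 5.03 to 9.79) were narrower shared sites. These 35 had a median width of 707 bp and median scores of 60.6 in LNCaP-abl, 8.17 under DHT and 8.75 under vehicle, against 907 bp, 91.0, 7.84 and 8.62 for the sites of all chromosomes. Of the LNCaP-abl peaks on this chromosome, 13.5% were in the DHT list and 23.5% in the vehicle list, against 27.4% and 36.0% of all LNCaP-abl peaks. In the 2 highest score deciles the share of peaks under 1500 bp was 46.4% (13 of 28, 27.5 to 66.1), and its interval includes the value of all chromosomes. Chromosome Y held 1 site.

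**Figure D5:**
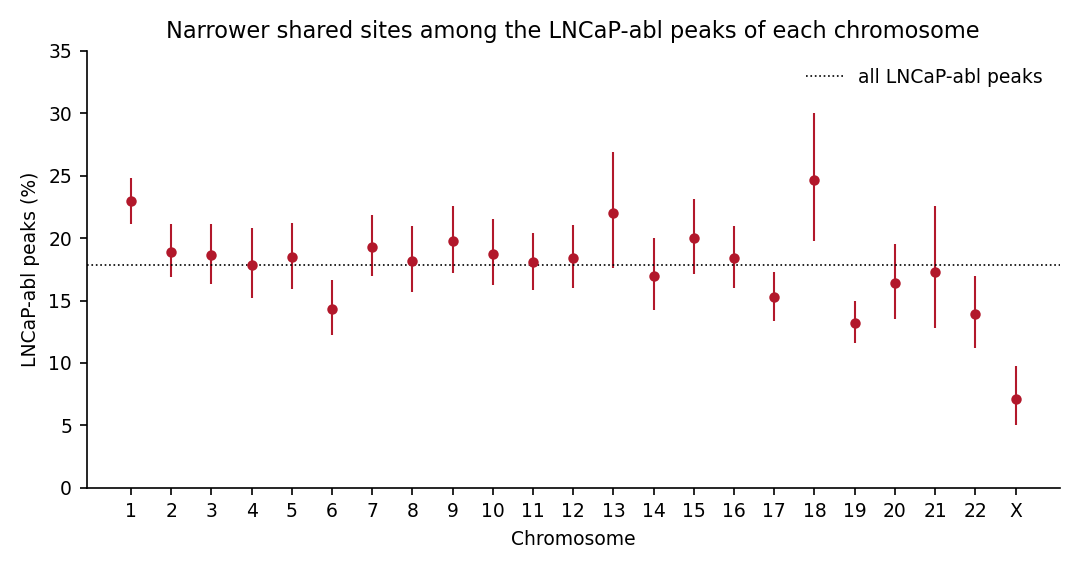
Share of the LNCaP-abl peaks of each chromosome (x axis) that are narrower shared sites (y axis, percent), with exact 95% intervals that cover counting error only; the dotted line is the share in the whole list, 17.8%, and chromosome Y, with 1 site, is left out. Chromosome 18 was highest at 24.7%, with 8 of its 71 sites in the window from 18 to 19 Mb beside the centromere, and chromosome X lowest at 7.14%.

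The sites were spread over many parts of the genome. They fell in 1538 windows of 1 Mb, of which 671 held a single site and 18 held 10 or more, with 225 sites in those 18. The gap to the nearest other LNCaP-abl peak had a median of 23167 bp, and 510 sites (13.9%, 12.8 to 15.0) had one under 500 bp away. This compares with 15.5% (12.9 to 18.3) of the broad shared peaks and 22.2% (21.4 to 22.9) of the LNCaP-abl peaks under 1500 bp that were in neither LNCaP list.

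The window with the most sites was chromosome 10 from 42 to 43 Mb, with 17 of its 18 LNCaP-abl peaks, over 44 DHT and 43 vehicle peaks. Its sites had a median width of 363 bp and median scores of 17.5 in LNCaP-abl, 22.9 under DHT and 27.3 under vehicle. Chromosome 11 from 0 to 1 Mb and chromosome 16 from 0 to 1 Mb held 15 sites each, among 70 and 72 LNCaP-abl peaks. The windows on chromosome 8 from 145 to 146 Mb and chromosome 9 from 139 to 140 Mb held 14 each, among 84 and 72. These 4 windows lie near chromosome ends, and their sites had median widths of 1004, 860, 1142.5 and 740 bp and median LNCaP-abl scores of 84.2, 95.2, 143 and 67.7. The window on chromosome 10 had the lowest median width and the lowest median LNCaP-abl score of the 5.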

How the data were processed

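TRIM24 peaks were compared between LNCaP-abl, LNCaP with DHT and LNCaP with vehicle, with 1 library each. Groups were taken from the sample titles. The 3 input samples were not used here. FastQC 0.10.0, Bowtie 0.12.7, MACS2 2.0 and the build hg19 are named in the submitters' processing notes. For the control, read filters and cutoff, the sources used here give nothing. The authors deposited 1 peak list per library, with a score on the −log10 scale of p or q-values, which of these is not stated. Peak start and end are other values of the authors' lists, and width is their difference. Printed starts count from 1.

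Overlaps were found in Python 3.11.15 (numpy 2.4.6, pandas 2.3.3, scipy 1.17.1) and gave the same answer as bedtools 2.31.1 for all 20621 LNCaP-abl peaks. The code was tested on simulated data and found 6250 of 6250 planted overlaps. Figures used matplotlib 3.10.9. Intervals are exact Clopper-Pearson 95% intervals, account for counting error alone and take neighbouring peaks as independent, which they may not be. Depth is unknown. No test between conditions was made.

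The sites and the peaks named were chosen with earlier results of these data known. Named sites followed a rule: the 8 with the highest lowest-of-3 percentile, the 5 with the lowest LNCaP-abl score, the 5 at each end of DHT minus vehicle percentile and of LNCaP-abl minus mean LNCaP percentile, the 3 narrowest, the 3 on each side of 1500 bp, the 5 with the most LNCaP peaks and the 5 fullest windows. Other overlap rules, width limits, list lengths and exclusions were tried. The planned gene lists, motifs and nearest genes need an hg19 annotation or sequence and were left out.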

Additional observations from a re-analysis of the deposited data

How the results depend on the processing

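Shares and medians below count as moved where they left the exact or order-statistic 95% interval of the value in the report, and numbers of sites where they differed by over 1.5 times. Of 156 recomputed values, 67 moved. The values are given in the order number of sites, share of the LNCaP-abl peaks under the width limit, midpoint distance (DHT, vehicle), LNCaP peak wholly inside (DHT, vehicle), share with the higher percentile under DHT, share with touching DHT and vehicle peaks, median score (LNCaP-abl, DHT, vehicle) and median width (LNCaP-abl, DHT, vehicle), leaving out those that did not move. With a width limit of 1000 bp these were 2186 sites, 13.1%, 71.5 bp and 67.2 bp, 76.3% and 75.3%, 42.5%, 96.7%, scores of 77.2, 8.27 and 8.84, and widths of 705 bp for LNCaP-abl peaks and 361 bp for vehicle peaks. With a limit of 2000 bp they were 20.4%, 109.5 bp and 101 bp, 85.9% and 85.4%, and in LNCaP-abl a score of 95.2 and a width of 972 bp. With a reciprocal overlap of at least 50% they were 926 sites, 4.72%, 45.2 bp and 46.0 bp, 65.9% and 64.6%, 40.8%, 100%, scores of 13.3 under DHT and 13.3 under vehicle, and widths of 600, 442 and 444 bp. A LNCaP-abl peak over 2 times as wide as its LNCaP peak cannot meet that rule. With at least 50% of the LNCaP peak covered they were 18.1%, then 86.7% and 85.9%. With peaks of 400 bp they were 17.9%, 94.5 bp and 87.5 bp, 95.3% and a LNCaP-abl width of 886 bp. With the better-scoring 50% of every list kept they were 1606 sites, 17.2%, 87.8 bp and 79.5 bp, 86.9% and 85.4%, 37.0%, 97.6%, scores of 126, 11.6 and 12.8, and widths of 409 bp under DHT and 456 bp under vehicle. In lists of 7105 peaks they were 41.0%, 92.8% and 90.7%, 44.8%, scores of 115, 8.12 and 9.88, and widths of 986, 357 and 425 bp. Shorter lists use fewer and higher-scoring peaks. Outside that order, 3 chromosome shares of the sites moved. The share on chromosome 19, 5.91% of all the sites, was 7.41% with the limit of 1000 bp and 8.42% with reciprocal overlap, and that on chromosome 1, 12.5%, was 14.8% with reciprocal overlap. For the other moves the cause was not tested. No value moved without mitochondrial, Y and unplaced sequences, without the 4 windows beside centromeres (chosen after seeing the data, 3629 sites left), or with the other choice of partner peak for midpoints and percentiles.

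No paired analysis was possible because 1 library stood for each condition, and for that reason leaving out a library left nothing to compare. Sequence features, nearest genes and gene lists were not run. The unknown depth limits any reading of an absent peak, and with it of which sites count as shared.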
